A study of Mus musculus with 6 samples.

Results

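The crystallins described here are 10 genes measured in dissected mouse retina: the alpha crystallins Cryaa and Cryab, the beta crystallins Cryba1, Cryba2, Cryba4, Crybb1, Crybb2 and Crybb3, and the gamma crystallins Cryga and Crygs. Every probe set that the platform annotation pairs with one of these symbols alone was taken, which gave 12 probe sets (3 of them for Cryab) of 22626 probe sets on the array that are not controls. Retinae were taken at postnatal day 7, and their RNA was read on 6 Affymetrix arrays. Of these, 3 are of wildtype C57BL/6 mice and 3 of knockout mice, whose labels also name C57BL/6. The question here is how the crystallin transcripts of the retina compare between these genotypes and between single arrays. The series' text speaks of 3 wildtype and 3 knockout mice, and the labels do not say whether an array held RNA of 1 mouse or of several, so the p-values measure the spread between these arrays, part of which may be technical.

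Crystallins are the main soluble proteins of the lens, where fibre cells accumulate them and keep them for life. The alpha crystallins belong to the small heat shock proteins and act as chaperones, holding unfolded proteins in solution. The beta and gamma crystallins form a separate superfamily of compact, long-lived structural proteins. Cryab is also made in many tissues outside the lens, and transcripts of several crystallins are known from the retina itself. The lens lies against the retina in the eye and is removed by hand when the retina is dissected.

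Most lens crystallin genes are switched on through binding sites for Maf transcription factors close to the start of transcription. In RefSeq (build GRCm38.p6), 9 of the 10 genes, all but Cryab, had a promoter entry. In the 250 bases before the start, the letters TGCTGA, the core of the Maf recognition element, occurred on either strand in 8 of the 9 crystallin promoters, against 16.1% of 32851 promoter entries of the same length. TATAAA occurred in 3 of 9 (12.4% of all), in each case on the gene's own strand and 40 to 15 bases before the start (1.99% of all), and AACAAT, a core bound by Sox factors, in 2 of 9 (9.42% of all). A match is a description of these letters and not a known binding site, and the 3 words do not overlap in these windows. The sequences below are shown because they belong to the crystallin with the widest range over the arrays within each class (alpha, acidic beta, basic beta and gamma), with Crybb2 as the promoter without TGCTGA. Each runs 5′ to 3′ on the strand of the gene and ends at the base before the start, with the searched words of either strand in capitals.
Cryaa at chr17:31677681-31677930, plus strand: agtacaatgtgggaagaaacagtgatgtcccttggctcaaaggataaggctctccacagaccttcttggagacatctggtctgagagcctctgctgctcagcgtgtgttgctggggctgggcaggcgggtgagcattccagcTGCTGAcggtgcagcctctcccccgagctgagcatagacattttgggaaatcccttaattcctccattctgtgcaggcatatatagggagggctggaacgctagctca
Cryba1 at chr11:77725294-77725543, minus strand: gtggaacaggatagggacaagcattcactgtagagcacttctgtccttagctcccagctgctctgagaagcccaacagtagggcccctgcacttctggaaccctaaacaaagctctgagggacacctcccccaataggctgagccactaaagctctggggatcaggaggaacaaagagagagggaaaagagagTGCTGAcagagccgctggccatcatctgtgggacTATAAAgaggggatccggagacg
Crybb1 at chr5:112255570-112255819, plus strand: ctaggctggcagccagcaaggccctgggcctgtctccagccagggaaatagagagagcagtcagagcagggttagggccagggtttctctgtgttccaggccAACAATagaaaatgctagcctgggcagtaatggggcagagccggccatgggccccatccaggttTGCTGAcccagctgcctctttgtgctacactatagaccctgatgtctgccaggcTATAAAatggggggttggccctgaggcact
Crygs at chr16:22811411-22811660, minus strand: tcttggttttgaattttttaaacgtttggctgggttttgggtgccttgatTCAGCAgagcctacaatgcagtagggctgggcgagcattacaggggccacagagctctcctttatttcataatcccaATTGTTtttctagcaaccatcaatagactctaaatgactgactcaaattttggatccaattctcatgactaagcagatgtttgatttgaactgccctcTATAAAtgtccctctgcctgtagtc
Crybb2 at chr5:113070118-113070367, minus strand: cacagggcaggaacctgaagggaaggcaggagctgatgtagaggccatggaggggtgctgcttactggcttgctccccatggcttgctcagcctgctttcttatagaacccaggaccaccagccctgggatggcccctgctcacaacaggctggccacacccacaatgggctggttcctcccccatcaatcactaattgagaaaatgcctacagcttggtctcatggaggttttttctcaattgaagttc

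The TGCTGA core began at position -108 from the start in Cryaa, -57 in Cryba1 and -84 in Crybb1, and the reverse complement at -200 in Crygs. Cryba4, an acidic beta crystallin, held 3 copies, at -182, -135 and -77. Cryba4 and Crybb1 are adjacent protein-coding genes on chromosome 5, as are Crybb2 and Crybb3, and Cryga ends a run of neighbouring gamma crystallin genes on chromosome 1. Cryab lies beside Hspb2, another small heat shock gene, on chromosome 9.

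The deposited values are linear intensity values made with MAS5, and each array was scaled to a common trimmed mean here. The trimmed means before scaling lay between 171 and 312. Knockout array 1 stood apart, with correlations of 0.914 to 0.936 with the other arrays against 0.958 to 0.979 among the remaining 5. Averaged over its 3 control probe sets, 18S ribosomal RNA had a scaled signal of 56.1 to 63.6 on 4 arrays, 983 on wildtype array 2 and 273 on knockout array 1. The brightest retinal genes listed were bright on every array, with Nrl, a rod transcription factor, between 5282 and 6873 and Sag, rod arrestin, between 6190 and 7886. Other retinal probe sets were lower, and one of Trpm1, a bipolar cell channel, lay between 4.36 and 17.6. Scaled signals below 19.1, the 20th percentile of all signals, are called dim below, since no detection calls were used here. Signals are compared between arrays within a probe set and not between probe sets.

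Cryaa (1452486_a_at), the lens alpha crystallin, was dim on 4 of the 6 arrays. Its scaled signal was 5.87, 4.45 and 251 in wildtype arrays 1 to 3 and 17.2, 12.6 and 129.8 in knockout arrays 1 to 3. A single array in each group, wildtype 3 and knockout 3, was therefore bright, and the groups overlapped. In RNA of a whole tissue, a change in the number of cells of a type and a change in RNA per cell cannot be told apart.

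Cryab, the stress-inducible alpha crystallin, was measured by 3 probe sets, and both bright ones were well above the dim level on every array. Probe set 1416455_a_at had 173, 144 and 325 in wildtype and 157, 149.5 and 181 in knockout. Probe set 1434369_a_at had 175, 147 and 345 in wildtype and 247, 239 and 202 in knockout. Wildtype array 3 was again the highest on both, but by 1.88 and 1.97 times over the next wildtype array. Cryaa was 42.7 times higher there, a ratio over a dim signal of 5.87, so its size is uncertain. The 3 knockout arrays lay close together, within 1.21 and 1.22 times of each other. The remaining probe set, 1435837_at, was near the dim level, at 37.4, 32.7 and 14.1 in wildtype and 17.1, 24.7 and 27.2 in knockout, and there wildtype array 3 was the lowest. The probe sets of this gene thus disagree on wildtype array 3.

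Among the acidic beta crystallins, Cryba1 (1450671_at) had the widest range of all members. On wildtype arrays 1 to 3 it gave 19.9, 6.68 and 398, and on knockout arrays 65.6, 29.1 and 176. Wildtype array 3 stood far above the other wildtype arrays, and in the knockout group array 3 was 2.69 times above array 1. Cryba2 (1419011_at) gave 32.7, 22.9 and 99.4 for wildtype and 15.6, 30.3 and 44.9 for knockout. Cryba4 (1420686_at) gave 2.84, 2.48 and 87.4 for wildtype and 20.4, 6.26 and 35.4 for knockout. For Cryba2 and Cryba4 too, array 3 was the highest of each group, and every wildtype value other than that of array 3 lay within or below the knockout range.

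The basic beta crystallins kept wildtype array 3 as the highest but differed in the knockout group. Crybb1 (1418306_at) had 13.6, 13.7 and 218 in wildtype and 97.7, 30.1 and 92.7 in knockout. Crybb3 (1419005_at) had 61.0, 59.2 and 214 in wildtype and 145, 66.4 and 126 in knockout. In these 2 genes knockout array 1 was slightly above knockout array 3, by 1.05 and 1.15 times. Crybb2 (1420536_at), a neighbour of Crybb3, had 57.0, 13.1 and 80.2 in wildtype and 22.9, 27.2 and 67.6 in knockout. For Crybb2, wildtype array 1 lay above knockout arrays 1 and 2, which it did for no other beta crystallin but Cryba2.

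Of the gamma crystallins, Cryga (1422652_at) was the member with the highest log2 fold change of knockout over wildtype. It gave 22.3, 18.4 and 206 on the wildtype arrays and 102, 52.0 and 195 on the knockout arrays, so wildtype array 3 and knockout array 3 were nearly level (ratio 1.06). Crygs (1420453_at), a relative of the gamma crystallins, had 3.46, 13.1 and 156 in wildtype and 5.29, 5.97 and 46.5 in knockout. For Crygs, arrays 1 and 2 of both groups were dim, and wildtype array 3 was 3.35 times above knockout array 3.

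**Figure D1:**
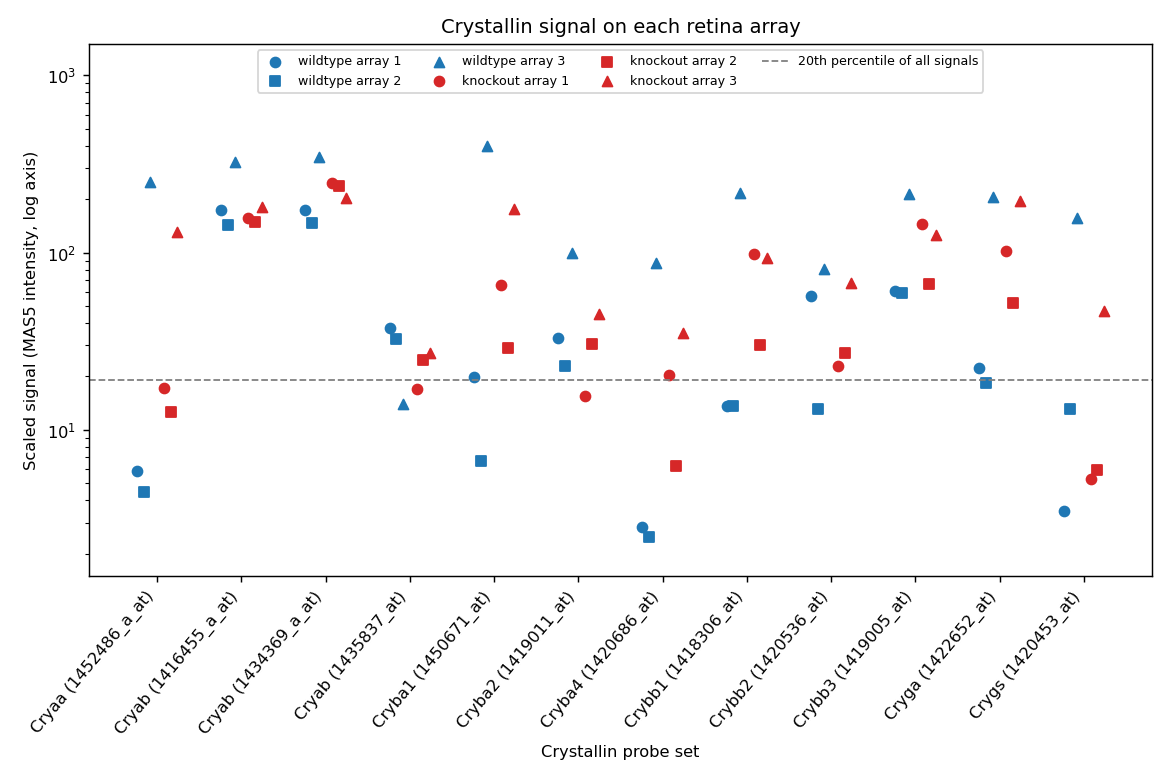
Scaled signal (log axis) of the 12 crystallin probe sets on each array, wildtype in blue and knockout in red, with a different marker for each array number and a dashed line at 19.1, the 20th percentile of all signals. Wildtype array 3 is the highest point for 11 of the 12 probe sets, and Cryab 1435837_at is the exception.

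Over the members, wildtype array 3 was the highest array for 11 of 12 probe sets and wildtype array 2 the lowest for 8. Of all probe sets that are not controls, 12.6% were highest in wildtype array 3. The share lowest in wildtype array 2 was not computed, so the count of 8 cannot be called particular to crystallins. Knockout array 3 was the highest knockout array for 9 of 12, and knockout array 1 for the other 3 (Crybb1, Crybb3 and Cryab 1434369_a_at). Wildtype array 3 and knockout array 3 were the highest pair for 8 of 12 probe sets. Among the tested probe sets defined below, they were so for 4 of 7 crystallins, against 6.43% of all tested. Of these 4, Cryaa and Cryba1 passed the filter only with wildtype array 3, so their count is partly set by that filter. Of the 9 probe sets that are not Cryab, 4, 7 and 0 were dim on wildtype arrays 1 to 3 and 3, 3 and 0 on knockout arrays 1 to 3. The array pattern was thus shared across classes and chromosomes. The members' signals on 1 array are measured in the same RNA, so the probe sets are not independent evidence of it.

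The SD pooled over both groups was above the median of all tested probe sets (0.23) for every tested crystallin, and least so for Cryab. Probe sets were tested where the mean signal over the 6 arrays exceeded 62.4, which 7 of the 12 did. Cryaa, Cryba1 and Crybb1 did so only with wildtype array 3, so their place among the tested probe sets is itself set by that array. On the log2(signal + 19.1) scale, the SD within groups was 1.69 for Cryba1 and 1.67 for Cryaa, which exceed 99.99% and 99.98% of all tested probe sets. Crybb1 had 1.27, Cryga 1.17 and Crybb3 0.73, above 99.9%, 99.8% and 98.3%. Both Cryab probe sets, at 0.41 and 0.44, exceeded 87.3% and 89.6%. Among the 5747 tested probe sets as bright as these (mean signal between 70.1 and 226), the shares exceeded were 99.98% for Cryba1, 97.9% for Crybb3, and 84.0% and 86.9% for Cryab. The range over the 3 wildtype arrays was 4.02 log2 units for Cryba1 and 3.52 for Cryaa, and over the 3 knockout arrays 2.02 and 2.23. For both Cryab probe sets the knockout ranges were 0.24 and 0.27, below the median of 0.43 over all tested probe sets.

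**Figure D2:**
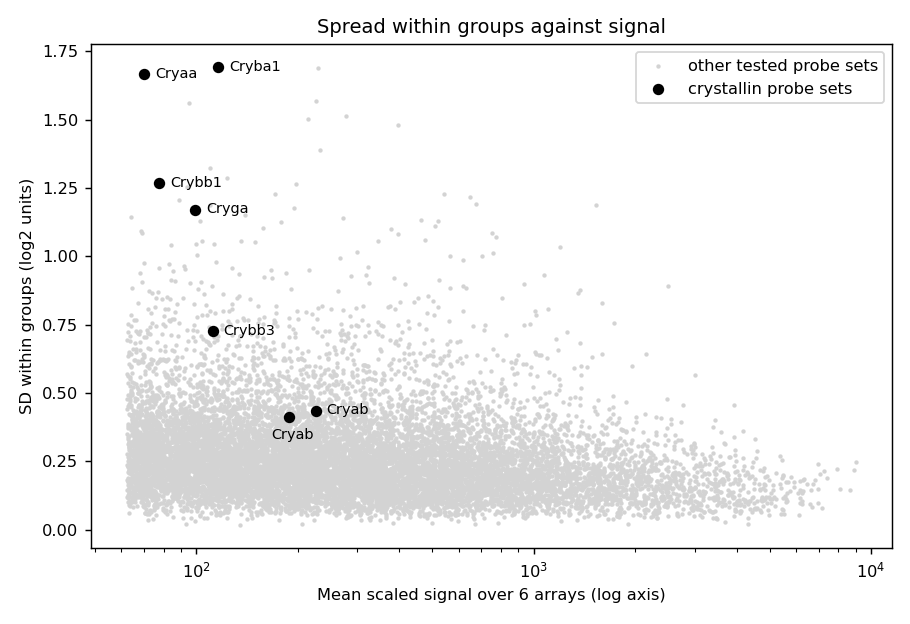
SD within groups (log2 units) against mean scaled signal over the 6 arrays (log axis), with the 7 tested crystallin probe sets in black and all other tested probe sets in grey. Cryba1 (1.69) and Cryaa (1.67) lie at the top of the plot, and both Cryab probe sets (0.41 and 0.44) lie in the upper part of the main cloud.

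No crystallin probe set passed the test between knockout and wildtype. In limma, 0 of the 7 tested crystallin probe sets had a Benjamini-Hochberg adjusted p under 0.05, where 2 of all 13575 (0.0147%) did, and 0 of the 7 had an unadjusted p under 0.05, where 518 of all did. The groups did not overlap for 0 of the 7, against 9.1% of all tested probe sets. Log2 fold changes of knockout minus wildtype were positive for 6 and negative for 1 of the 7, with a median of 0.16 against 0.00031 over all 13575. The median over all 12 crystallin probe sets, those below the filter included, was 0.04. Mean Cryga signal was 82.2 ± 107 (SD, n = 3) for wildtype against 116 ± 72.4 for knockout. Its log2 fold change was 0.80 ± 0.65 (SE; 95% interval -0.65 to 2.25; limma adjusted p = 0.999). Cryaa had 87.0 ± 142 and 53.2 ± 66.4, a log2 fold change of 0.04 ± 0.91, although its mean signal was lower in knockout. Cryba1 likewise had a lower mean in knockout, 90.3 ± 76.6 against 142 ± 222, and a log2 fold change of 0.31 ± 0.92. For these genes the mean signal rests on wildtype array 3 and the log2 scale gives the dim arrays more weight.

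The remaining tested members had log2 fold changes of 0.45 ± 0.70 for Crybb1, 0.16 ± 0.42 for Crybb3, and -0.29 ± 0.27 and 0.13 ± 0.28 for Cryab (SE). The 95% intervals of Cryab, -0.89 to 0.31 and -0.49 to 0.75, were the narrowest among the tested members, and that of Cryba1, -1.75 to 2.37, the widest. Below the filter, the 5 other probe sets had log2 fold changes of -0.56 for Crygs, -0.41 for Cryba2, -0.18 for Crybb2, -0.13 for Cryab 1435837_at and 0.04 for Cryba4 in a fit without a filter (limma adjusted p = 0.999 for each). All 12 intervals included 0. The intervals of Cryaa and Cryba1 reach past 3-fold in either direction, so changes of that size were not detectable for them with 3 arrays per group.

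**Figure D3:**
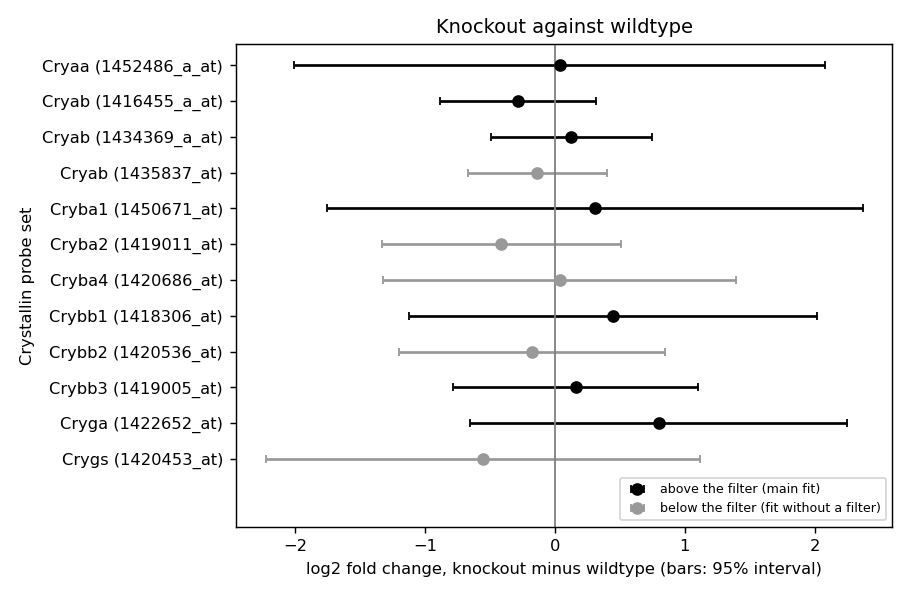
Log2 fold change of knockout minus wildtype for each crystallin probe set, with 95% intervals from limma, black for the 7 above the filter and grey for the 5 below it (fit without a filter). All 12 intervals cross 0, and those of Cryab are narrower than that of Cryba1 (-1.75 to 2.37).

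The crystallin level of an array, the mean over the 7 tested probe sets of the log2 value centred on its 6-array mean, was -0.79, -0.97 and 1.42 in wildtype arrays 1 to 3 and 0.13, -0.45 and 0.66 in knockout arrays 1 to 3. Wildtype arrays 1 and 2 lay below all knockout arrays and wildtype array 3 above all of them. The group means differed by 0.23, less than the within-group SD of 1.33 in wildtype and 0.56 in knockout. Without wildtype array 3 the difference was 0.99, with wildtype at -0.50 and -0.69 and knockout at 0.41, -0.17 and 0.95. The 7 probe sets stayed those chosen with that array included. They hold Cryaa, Cryba1 and Crybb1, which passed the filter only with wildtype array 3. Without wildtype array 2 the difference was -0.20, and it also turned negative without wildtype array 1 (-0.11) or knockout array 3 (-0.05). Single arrays of either group thus set its direction. Cryga had a log2 fold change of 1.64 without wildtype array 3 (limma adjusted p = 0.92) and 0.34 without wildtype array 2. Cryaa had 1.20 and -0.56 in the same settings.

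Other lens genes were compared with the crystallins on the same arrays. Of 6 further lens crystallins, 4 had probe sets with a single symbol. Crygb had 7.16, 38.7 and 197 in wildtype and 88.1, 44.5 and 159 in knockout, and Crygf, on a probe set open to cross-hybridisation, had 13.9, 67.7 and 164 against 129, 56.5 and 173. Crygd, below the filter and named after its values were seen, had 2.71, 2.85 and 125 against 7.51, 3.09 and 51.4, the same bright pair as Cryaa. Crygn was dim on every array. The summed signal of these 4 was 32.2 to 495 in wildtype and 119 to 389 in knockout.

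Most genes of the lens fibre membrane and cytoskeleton were at or near the dim level on all arrays. Of 16 listed genes, 8 had 11 probe sets, of which 4 (36.4%) were highest in wildtype array 3, against 12.6% of all probe sets. Below the filter were 7 of the 11, with signals between 1.28 and 43.1. Mip, the major intrinsic membrane protein of lens fibres, stayed between 1.59 and 2.26 on one probe set and between 1.28 and 14.4 on the other, dim on every array though highest in wildtype array 3 on the second. Bfsp1, the fibre cytoskeletal protein filensin, did not exceed 3.52, and Foxe3, a lens epithelial transcription factor, did not exceed 4.05. The summed signal of these 7 probe sets came to 65.7, 98.6 and 70.4 for wildtype and 78.0, 60.6 and 72.8 for knockout, and wildtype array 3 was neither the highest nor the lowest. Most of that sum was Hsf4 (29.1 to 43.1) and Gja3 (11.5 to 29.0). The others were dim on every array, so the sum says little about them. The list's bright members, Cd24a and Tdrd7, are also made in neural tissue. Tdrd7 had 1791, 1672 and 2202 in wildtype and 1430, 1961 and 2130 in knockout. The part of lens RNA in the crystallin signals was not tested beyond these values.

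Genes of other tissues near the retina were mixed on wildtype array 3. The 15 skeletal muscle probe sets of 12 genes summed to 638, 556 and 868 in wildtype and 490, 481 and 426 in knockout. Of the 15, 8 (53.3%) were highest in wildtype array 3, against 12.6% of all probe sets. Above the filter it was 1 of the 4, against 15.6% of all tested. Acta1, skeletal muscle actin, had 56.4, 37.9 and 205 in wildtype and 62.1, 41.4 and 41.7 in knockout. Casq1, a calcium-binding muscle protein, had 131, 121 and 103 in wildtype, and Des, the muscle filament protein desmin, had 143, 142 and 86.5, both lowest of their group in array 3. From the list of cornea, ciliary body and iris, Dcn, the matrix proteoglycan decorin, had 9.75, 8.21 and 123 in wildtype and 45.6, 17.6 and 41.9 in knockout, and was named after its values were seen. Krt18, an epithelial keratin, had 316, 295 and 284 in wildtype, lowest in array 3, and Zic1, a transcription factor, was highest in knockout array 1. Of the 17 probe sets, 6 (35.3%) were highest in wildtype array 3, and 1 of the 4 above the filter, against the same 12.6% and 15.6%. The summed signal of the 17 probe sets of that list was 2445 to 3062 in wildtype and 2674 to 3071 in knockout. Pigment epithelium genes summed to 2345 to 5156 in wildtype, lowest in array 2, and 4108 to 5305 in knockout. The 8 blood probe sets of 6 genes summed to 136 to 187 and 132 to 204. The 27 retinal identity probe sets of 19 genes summed to 41805 to 43553 and 38634 to 43100. The part of these tissues in the crystallin signals was not tested.

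**Figure D4:**
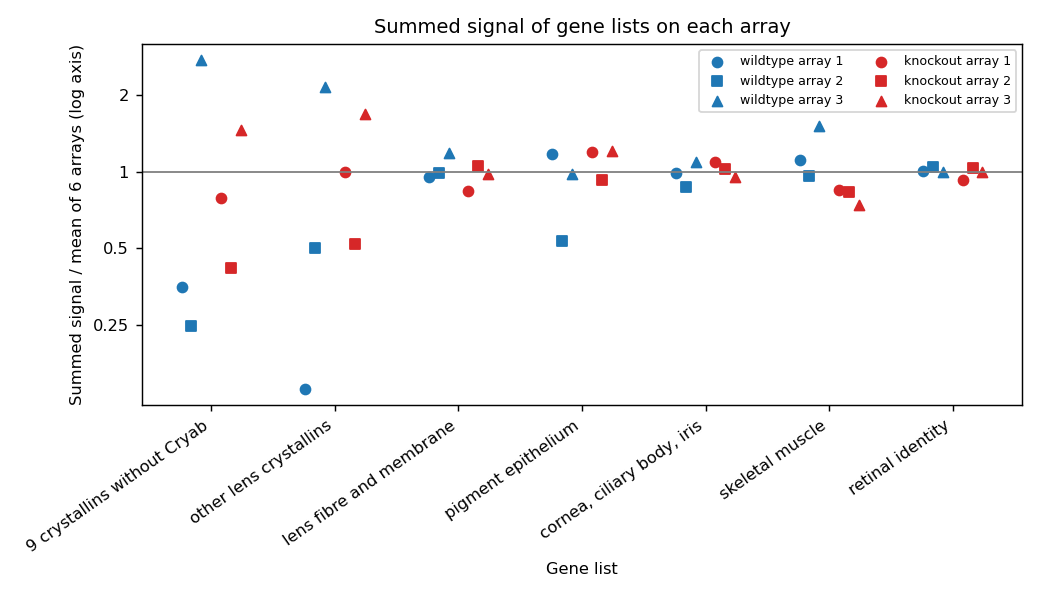
Summed scaled signal of 7 gene lists on each array, divided by the mean of the 6 arrays (log axis), wildtype in blue and knockout in red. The 9 crystallin probe sets that are not Cryab range from 154 in wildtype array 2 to 1709 in wildtype array 3, and the lens fibre list, most of whose signal is Cd24a and Tdrd7, and the retinal list stay close to the line at 1.

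Known regulators of the crystallin genes and relatives of the alpha crystallins were counted in the same way. Of 22 genes known to regulate crystallin genes or related to those regulators, 18 had 31 probe sets, and of the 18 probe sets above the filter 7 had positive and 11 negative log2 fold changes, with 0 past the threshold and a median of -0.05. Pax6, a master regulator of eye development, had 408, 452 and 535 in wildtype and 108, 443 and 308 in knockout on 1452526_a_at, a log2 fold change of -0.85 ± 0.40 (SE; limma adjusted p = 0.999). On 1425960_s_at, with 70.9, 139 and 133 in wildtype and 2.66, 82.2 and 26.8 in knockout, it was -1.47 ± 0.49 (limma adjusted p = 0.999). Knockout array 1 was dim there. Pax6 on its brightest probe set had 1131, 1322 and 1394 in wildtype and 984, 1352 and 1174 in knockout. Knockout array 1 was the lowest array on these 3 probe sets. Below the filter, Pax6 1437816_at and 1456342_at were lowest in wildtype array 3. Their log2 fold changes were 0.0072 and -0.24 in the fit without a filter. Six3, a transcription factor of early lens and retina, had a log2 fold change of 0.39 ± 0.18 on its probe set above the filter (limma adjusted p = 0.999). A Six3 probe set below the filter had 3.64, 4.41 and 2.56 in wildtype and 24.5, 11.5 and 23.1 in knockout, near or below the dim level. Its log2 fold change was 0.76 in the fit without a filter (limma adjusted p = 0.999). The remaining Six3 probe set was dim on every array. Crx, a photoreceptor transcription factor, lay between 2548 and 3739 on its brighter probe set.

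The small heat shock relatives of the alpha crystallins had 3 probe sets above the filter of 10 for 5 genes, with 1 positive and 2 negative log2 fold changes and 0 past the threshold. Hspb1 had 437, 368 and 317 in wildtype and 552, 399 and 326 in knockout, lowest in wildtype array 3 within its group. Both bright Cryab probe sets were highest there, and Cryab 1435837_at was lowest. Its other probe set, open to cross-hybridisation, had 144, 129.7 and 154 in wildtype, highest in wildtype array 3, so its probe sets disagree. Hspb2, the neighbour of Cryab, had 59.0, 47.2 and 34.1 in wildtype and 45.3, 51.1 and 46.1 in knockout, and wildtype array 3 was again the lowest. Another list held 6 probe sets of genes with crystallin names, most so named because other animals use their proteins in the lens. Of these, 1 (16.7%) was highest in wildtype array 3, against 12.6% of all probe sets. Cryz, a quinone oxidoreductase, had 572, 216 and 561 in wildtype and 759, 449 and 515 in knockout on 1 probe set, a log2 range of 1.72 that exceeds those of Crybb3 (1.57) and Cryab. Its second tested probe set lay between 228 and 285, so the probe sets of Cryz disagree. Cryzl1 lay between 546 and 652, and Crym, a thyroid hormone binding protein, between 2179 and 2667.

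The genes most like the crystallin level over the 6 arrays were ranked by Pearson correlation among 2131 tested probe sets with a single symbol and a range of at least 1 log2 unit, crystallins left out. Correlations over 6 arrays that share their RNA with the level are a description. The filter and the range cut used all 6 arrays, so a probe set high in wildtype array 3 alone could enter. Some of the genes named here, Arhgap21 and Tle4 among them, reached the range cut only with that array. Mapk10, a neuronal JNK kinase, came first (r = 0.97, Spearman rank correlation 1.0), with 85.2 to 318 in wildtype and 153 to 248 in knockout on a probe set open to cross-hybridisation. Arhgap21, a GTPase activating protein, followed (r = 0.94), and Col3a1, a fibrillar collagen of connective tissue, came next (r = 0.93). Col3a1 had 33.2, 30.9 and 402 in wildtype and 42.1, 39.2 and 111 in knockout, bright on the same 2 arrays as Cryaa. Without wildtype array 3 their correlations were 0.96, 0.90 and 0.89. Tle4, Npnt, Mrpl15, Cyp7b1, Eps8, Rap2c and Igfbp5 followed with r between 0.80 and 0.89, and 3 of the 2131 probe sets exceeded 0.9.

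For the mean of the 2 bright Cryab probe sets the most similar genes were Acta1 (r = 0.94), Tle4 (0.92), Snrpa1 (0.92), Igfbp5 (0.92) and Col3a1 (0.92). Without wildtype array 3 the correlation of Tle4, a transcriptional corepressor, was 0.98, and those of Acta1 and Col3a1 were 0.48 and 0.49. The likeness of Acta1 and Col3a1 to Cryab thus rested on wildtype array 3, whereas that of Col3a1 to the crystallin level was 0.89 without it. Acta1 and Col3a1 passed the filter only with that array, so their place among the ranked probe sets is itself set by it.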

How the data were processed

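Linear probe set intensity values were deposited for 6 arrays, and the submitters' processing notes name MAS5. Its version, scaling target and detection calls are not given in the sources used here. The targeted gene is not reported here. The 64 controls were dropped and arrays were brought to one mean, trimmed by 2% at each end. Values were used as log2(signal + 19.1), where 19.1 is the 20th percentile of signals, which understates fold changes of dim probe sets. A filter at the 40th percentile of mean signal left 13575 probe sets, fitted in limma 3.58.1 (R 4.3.3; lmFit, eBayes with an intensity trend), with Benjamini-Hochberg adjustment over all of them. The fit was tested on simulated data. Precision is limited by having 3 arrays a group.

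Members and lists were chosen with earlier results of these data known. All member probe sets are named, with up to 6 lens genes by their range, up to 3 genes of every other list by the moderated statistic, Crx, Nrl and Pax6 as levels, and the nearest genes by correlation. Sag, Hspb2, Crym, and the lens and matrix genes below the filter were added after their values were seen. Symbols were updated through Entrez identifiers (20364 matched). A single symbol was found for 20380 probe sets, several for 691 and none for 1555. Probe sets ending in _a_at, _s_at or _x_at can detect related transcripts. Alternatives covered scaling, pseudocount, filter, trend, weights of arrays, a block on replicate number, and arrays left out. Where arrays were left out, the filter on all arrays was kept.

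Same-numbered arrays deviated from their group means with correlations of 0.18, -0.03 and 0.08, so the numbers were not taken to pair the arrays.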

Additional observations from a re-analysis of the deposited data

How the results depend on the processing

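The count of crystallin probe sets past the threshold was 0 in all 17 alternatives, including the fit with the replicate number as a block (replicate block, 0 of 7). With 3 arrays per group and log2 standard errors up to 0.92, only large changes could pass. The count over all tested probe sets (2) was 10 without rescaling, 1 without a filter, 4 without wildtype 2 and knockout 1, and 0 to 4 with 1 array left out (0 without wildtype 3). The crystallin level difference (0.23) ranged from -0.21 without wildtype 2 and knockout 1 to 0.99 without wildtype 3, an array that carries much of the wildtype spread. Of 114 single values, 19 turned sign, all far from the threshold. The log2 fold change of Cryaa was -0.10 with the higher pseudocount and 0.59 with a pseudocount of 1, which gave Cryba1 0.82. Array weights gave Cryaa 0.97, Cryba1 1.11, Crybb1 0.86 and Cryga 1.33. Without wildtype 2 and knockout 1, those of Crybb1 (-0.25), Crybb3 (-0.29), Cryab 1434369_a_at (-0.15), Cryba1 (-0.40) and Cryaa (-0.26) turned. With 1 array left out the ranges were -0.67 to 1.20 for Cryaa, -0.46 to 1.55 for Cryba1, -0.031 to 1.40 for Crybb1, -0.11 to 0.68 for Crybb3, and -0.51 to 0.034 and -0.10 to 0.47 for Cryab, with the upper end without wildtype 3 in each case. That of Cryga stayed positive in its 16 alternatives. Fewer arrays apart, the cause was not tested.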
